A study of Mus musculus with 6 samples.

Results

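Adipogenesis is driven by a cascade of transcription factors in which Cebpb and Cebpd act early and Pparg and Cebpa act later, each of the later pair keeping the other switched on. Genes that they turn on include Fabp4, Fabp5, Lpl and Cd36, which bind, release or take up fatty acids, and the mouse genes Arxes1 and Arxes2, which are required for full fat cell formation in culture and resemble Spcs3, a subunit of the signal peptidase complex. Embryonic fibroblasts in culture can enter this program when given an inducing mixture, and immortal lines differ in how readily they do so.

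The 10 genes described here are Arxes1, Arxes2, Pparg, Cebpa, Cebpb, Cebpd, Fabp4, Fabp5, Lpl and Cd36, out of 26231 genes measured by RNA sequencing. They were picked by symbol, with the difference between the cell lines in these same libraries already known, so each gene's difference is a description with no p-value, and counts past a threshold are given only beside those of all genes. Mouse embryonic fibroblasts (MEFs) were taken from Nf2 fl/fl animals of the FVB strain, at about 14 days of gestation per the labels, and immortalized with SV40 large T antigen. One line received a control lentivirus (MEF WT, genotype WT control) and the other a lentivirus for Cre recombinase, which removes the loxP-flanked part of Nf2 (MEF Nf2 KO). Each line gave 3 libraries, grown in DMEM with 10% FBS and kept without serum for 24 h before RNA was taken. No inducer of adipogenesis is named in the labels. Both lines carry large T antigen, 1 line of each kind is described, and nothing in the sources ties the 3 libraries of a line to separate derivations, so any spread is that between libraries.

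The values are read as RPKM, reads scaled to exon length and to the depth of the library, which are comparable between genes per length. The depth worked out from the values was 13428884 to 61103425 reads in MEF WT and 18043543 to 72910883 reads in MEF Nf2 KO, with replicate 3 the deepest in both. Nf2 RNA did not separate the lines. It was at 14.3, 13.7 and 13.1 RPKM in MEF WT replicates 1, 2 and 3 and at 15.4, 12.9 and 13.9 RPKM in MEF Nf2 KO (limma, adjusted p = 0.987). A value for the whole gene also counts reads outside the removed part, so it does not check the deletion, and the second line is called labelled MEF Nf2 KO. Fibroblast markers were led by Vim, at 536 to 882 RPKM, with Col1a1 and Fn1 next, and had a summed level of 1855 to 2554 RPKM in MEF WT and 1444 to 1876 RPKM in those labelled MEF Nf2 KO, which rests on a few abundant genes. Of the 10, Lum was under 1 RPKM in every library, and Pdgfra, Dcn and Fn1 were past the threshold and lower in the second line (limma), though Pdgfra and Dcn passed the filter only through MEF WT. The Fn1 call was lost whichever library was left out (adjusted p 0.0709 to 0.175), and the Dcn call was kept only when that library was MEF WT replicate 2 (up to 0.1598 otherwise). All 8 measured markers of mature adipocytes were under 1 RPKM in every library and summed to 0.0894 to 0.884 RPKM, with Adrb3 the highest. Markers of other cells were low. Macrophage markers summed to 9.37 to 12.05 RPKM in MEF WT and 7.65 to 9.52 RPKM in the other line (mostly Cd68), endothelial ones to 1.46 to 4.46 RPKM (mostly Kdr), skeletal muscle ones to 0.831 to 6.63 RPKM (mostly Acta1), and epithelial ones to 0.328 to 1.23 RPKM (led by Krt18).

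Arxes2 and Arxes1 lie next to each other on the X chromosome and are close copies. In GENCODE vM21 on GRCm38 (mm10), Arxes2 runs from 135993824 to 135995355 and Arxes1 from 136033367 to 136034946, both on the plus strand and both as 1 exon, with starts 39.5 kb apart. Their coding sequences of 543 bases, stop codon included, had 0 mismatches and encode the same 180 residues. The identical stretch was 639 bases long and covered 40.4% of the 1580-base Arxes1 transcript and 41.7% of the 1532-base Arxes2 transcript, from 80 bases before the start codon to 16 bases past the stop codon. Past this stretch lie 882 bases of Arxes1 and 838 bases of Arxes2, which hold most of the sequence outside it, and a short 5′ end lies before it. Of all stretches of 31 bases, 40.8% in Arxes1 and 42.1% in Arxes2 occurred in the other gene, so reads from there cannot be assigned by sequence and could have been shared or moved between them.

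The sequence before the start sites is shown because this pair has the same letters there. The RefSeq windows of both genes (GRCm38.p6) were identical over all 300 bases compared, and the 250 bases upstream of the start are printed 5′ to 3′ on the plus strand, at chrX:135993570-135993819 for Arxes2 and chrX:136033117-136033366 for Arxes1. Capitals mark GC boxes (GGGCGG).
Arxes2: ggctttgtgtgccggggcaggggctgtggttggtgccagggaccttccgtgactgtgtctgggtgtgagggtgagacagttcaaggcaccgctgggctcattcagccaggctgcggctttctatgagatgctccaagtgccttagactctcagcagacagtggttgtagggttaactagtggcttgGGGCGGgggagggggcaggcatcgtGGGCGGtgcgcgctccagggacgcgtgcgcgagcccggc
Both strands were searched. The window held 2 GC boxes, a motif found in 32.7% of 32851 such windows. It held 0 matches to the nuclear receptor half-site AGGTCA (14% of all windows), 0 to its direct repeat with 1 base between (0.0335%), 0 to the C/EBP letters TTNNGNAA (36.8%) and 0 to TATAAA (12.4%). A direct repeat also contains the half-site letters. These are matches of letters in a short window and say nothing of whether a factor binds. Of the 10 genes, 6 had such a window, and Cebpd, Fabp4, Fabp5 and Lpl did not. Of the 3 annotated Pparg windows, those at the first 2 starts held 1 AGGTCA each, and the third held 2 TTNNGNAA. The Cd36 window held 1 of each, and those of Cebpa and Cebpb held 0 of either.

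Arxes2 was at 4.54, 11.5 and 8.17 RPKM in MEF WT replicates 1, 2 and 3. In the other line it was at 32.4, 37.5 and 35.9 RPKM. Every library of that line was thus above every MEF WT library, and the spread between libraries was much smaller than the gap. The means were 8.08 ± 3.50 and 35.3 ± 2.60 RPKM (SD, n = 3 each), a ratio of 4.36, and the difference on log2(RPKM + 1) was 2.07 (SE 0.28). The estimated reads behind these values ran from 93.3 to 4010. In bulk RNA, more cells of a type and more RNA per cell cannot be told apart.

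Arxes1 followed the same order at a lower level. It was at 0.0668, 0.564 and 0.450 RPKM in MEF WT and at 4.71, 4.52 and 6.23 RPKM in those labelled MEF Nf2 KO, so the lines did not overlap. The means were 0.360 ± 0.261 and 5.15 ± 0.940 RPKM (SD, n = 3 each), and the log2 difference was 2.19 (SE 0.19). A pseudocount of 0.1 in place of 1 raised it to 3.72, because adding 1 RPKM damps changes in weakly expressed genes. The reads assigned to Arxes1 in MEF WT came to 1.42, 16.9 and 43.5, against 134, 137 and 718 in the other line. Some of these are not whole numbers.

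Arxes1 as a share of the Arxes2 level also differed. It was 1.47%, 4.89% and 5.51% in MEF WT and 14.5%, 12.1% and 17.4% in the libraries labelled MEF Nf2 KO, with means of 3.96% ± 2.18 and 14.7% ± 2.65 (SD, n = 3 each). Whether the split of shared reads moved with this share was not tested. The sum of both genes does not depend on that split except through their slightly different lengths. It was 4.604, 12.1 and 8.62 RPKM in MEF WT and 37.1, 42.0 and 42.1 RPKM in the other line, a ratio of means of 4.79 and a log2 difference of 2.21 (SE 0.29). Spcs3, the related gene of the signal peptidase complex, was at 79.9, 71.1 and 83.7 RPKM in MEF WT and 64.0, 66.1 and 82.7 RPKM in the other line, which overlap (limma, log2 difference -0.14, adjusted p = 0.895).

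Lpl encodes lipoprotein lipase, the secreted enzyme that releases fatty acids from circulating triglycerides. It was at 0.659, 0.644 and 0.605 RPKM in MEF WT and at 1.84, 2.12 and 2.06 RPKM in those labelled MEF Nf2 KO. The MEF WT values lay close together and the lines did not overlap. The means were 0.636 ± 0.0282 and 2.01 ± 0.149 RPKM (SD, n = 3 each), a ratio of 3.15, and the log2 difference was 0.88 (SE 0.10), or 1.51 with a pseudocount of 0.1. Lpl lies on chromosome 8 from 68880491 to 68907448. The reads behind it ran from 92.8 to 1576.

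Of the fatty acid binding proteins, Fabp5 was among the most abundant of the 10 genes and Fabp4, the adipocyte form, was nearly silent. Fabp5 was at 19.2, 22.5 and 18.4 RPKM in MEF WT and at 29.9, 37.4 and 50.6 RPKM in those labelled MEF Nf2 KO. The lines did not overlap, but the second one spread widely, with replicate 3 the highest. The means were 20.04 ± 2.20 and 39.3 ± 10.5 RPKM (SD, n = 3 each), a ratio of 1.96 and a log2 difference of 0.91 (SE 0.19). Of its stretches of 31 bases, 9.21% occurred in other genes, most of them in Gm6166, so its level carries some uncertainty. Fabp4 was at 0.314, 0.258 and 0.327 RPKM in MEF WT and at 0.271, 0.335 and 0.341 RPKM in the other line, which overlap. The pair lies on chromosome 3, with starts 192 kb apart.

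The early C/EBP factors differed in the sign of their difference. Cebpd was at 5.55, 9.26 and 5.53 RPKM in MEF WT and at 17.8, 11.6 and 11.97 RPKM in those labelled MEF Nf2 KO, so the lines did not overlap, with replicate 2 of MEF WT closest to the others. The means were 6.78 ± 2.15 and 13.8 ± 3.45 RPKM (SD, n = 3 each), a ratio of 2.03 and a log2 difference of 0.94 (SE 0.23). Cebpb was at 30.4, 20.4 and 18.1 RPKM in MEF WT and at 23.0, 14.9 and 11.2 RPKM in the other line. The Cebpb ranges overlapped, with means of 23.0 ± 6.53 and 16.4 ± 6.01 RPKM (SD, n = 3 each) and a log2 difference of -0.49 (SE 0.29). Within each replicate number, however, the library labelled MEF Nf2 KO was the lower of the pair, by -0.39, -0.43 and -0.64 on the log2 scale, and with the replicate block the SE was 0.075.

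The later regulators did not follow Arxes2 and Lpl. Pparg, the nuclear receptor that commits cells to the adipocyte fate, was at 1.53, 3.18 and 1.87 RPKM in MEF WT and at 1.80, 2.02 and 1.26 RPKM in those labelled MEF Nf2 KO. The lines overlapped, with a log2 difference of -0.23 (SE 0.21) whose sign was not the same in all pairs (0.14, -0.47 and -0.35). Cebpa was under 1 RPKM in every library, at 0.592, 0.460 and 0.570 RPKM in MEF WT and 0.545, 0.0787 and 0.161 RPKM in the other line. Replicates 2 and 3 labelled MEF Nf2 KO were the lowest, but replicate 1 lay within the MEF WT range, and these lower values rested on 3.99 and 30.9 reads. Within replicates 1, 2 and 3 the Cebpa differences were -0.04, -0.44 and -0.44 on the log2 scale. Cd36, a fatty acid transporter of the cell surface, was close to silent. It was at 0, 0 and 0.0773 RPKM in MEF WT and at 0.0154, 0.0144 and 0.0305 RPKM in the other line. The replicates 1 and 2 thus held 0 or 1 read each, below the 3 reads taken as the limit of detection, which allow up to 0.0622 RPKM in MEF WT replicate 1.

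**Figure D1:**
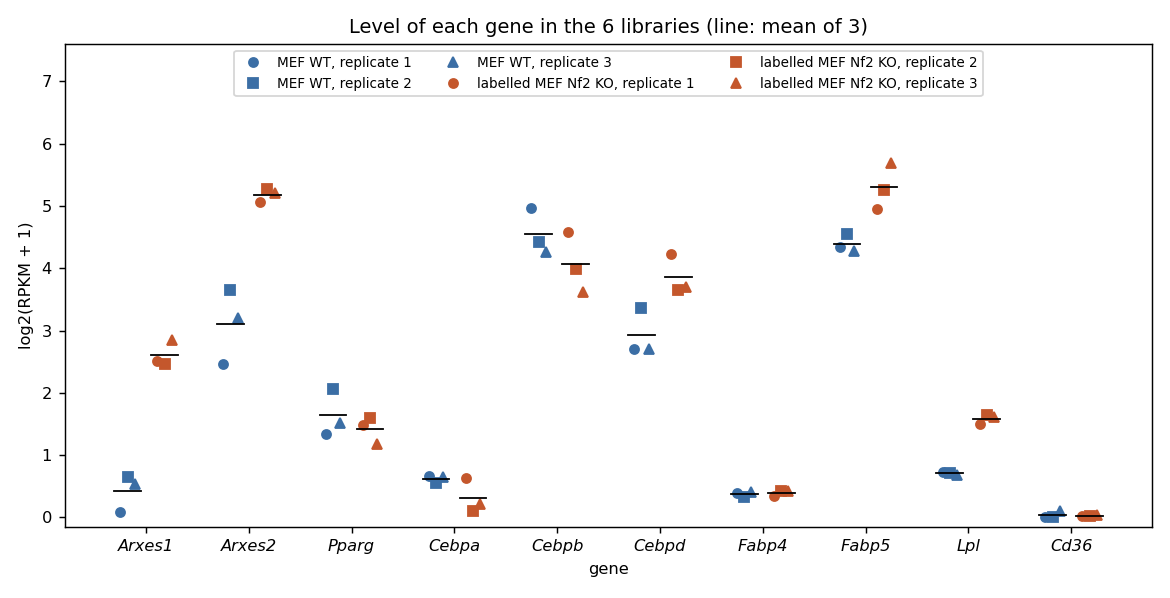
Level of each of the 10 genes in log2(RPKM + 1), 1 point per library, with the mean of 3 libraries as a line, MEF WT in blue and the libraries labelled MEF Nf2 KO in orange. Arxes1, Arxes2, Lpl, Fabp5 and Cebpd show no overlap between the colours, Pparg and Cebpb overlap, and Cebpa, Fabp4 and Cd36 sit under 1 RPKM throughout.

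The 10 genes covered a wide range of levels, and their order changed between the lines. In MEF WT, Cebpb (23.0 RPKM) and Fabp5 (20.04 RPKM) stood highest, with overlapping libraries. Arxes2 (8.08 RPKM) and Cebpd (6.78 RPKM) came next, again overlapping, followed by Pparg (2.20 RPKM) and Lpl (0.636 RPKM), which stood apart from their neighbours. Cebpa (0.541 RPKM), Arxes1 (0.360 RPKM) and Fabp4 (0.3001 RPKM) followed, where Arxes1 overlapped both of the others, and Cd36 was last. In the libraries labelled MEF Nf2 KO, Fabp5 (39.3 RPKM) and Arxes2 (35.3 RPKM) overlapped at the top, then Cebpb (16.4 RPKM) and Cebpd (13.8 RPKM), which also overlapped. Arxes1 (5.15 RPKM) stood alone between these and the overlapping pair Lpl (2.01 RPKM) and Pparg (1.69 RPKM). Fabp4 (0.316 RPKM) and Cebpa (0.262 RPKM) overlapped, with Cd36 last again.

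A filter of at least 1 RPKM in at least 3 libraries kept 11067 genes for the fit, 7 of the 10 genes among them. Cebpa, Fabp4 and Cd36 fell below it. Arxes1 and Lpl passed only through the libraries labelled MEF Nf2 KO, so they had to be higher there. In limma on log2(RPKM + 1), 3 of the 7 passed an adjusted p of 0.05 as higher in that line (Arxes1, Arxes2 and Lpl), against 0.479% of all tested genes, and 0 passed as lower, against 0.578%. With the replicate number as a block, 4 passed as higher, Fabp5 now among them, against 2.99% of all genes, and 1 as lower, Cebpb, against 4.54%. Cebpd passed in neither. The lines did not overlap, higher in the libraries labelled MEF Nf2 KO, for 5 of the 7, against 7.6% of all genes, and lower for 0, against 7.52%. As these genes were chosen on this difference, nothing is read from the counts. The median log2 difference of the 7 was 0.91, and that of all tested genes was -0.01.

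Without single libraries the size of the differences moved little for Arxes2 (1.76 to 2.34 on the log2 scale), Arxes1 (2.02 to 2.30) and Lpl (0.85 to 0.92), and more for Cebpb (-0.75 to -0.26) and Pparg, which was at -0.38 without MEF WT replicate 1 and close to 0 (-0.015) without MEF WT replicate 2, while how many passed did not hold. It was 0 without MEF WT replicate 3 and without the replicate 1 labelled MEF Nf2 KO, where 5 and 6 of the 7 had an unadjusted limma p under 0.05, as did 824 and 898 of all 11067 genes. It was 1 without MEF WT replicate 1 and without the replicate 3 labelled MEF Nf2 KO. In these fits, few genes of any kind passed, 10 to 18 against 117 with all libraries.

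**Figure D2:**
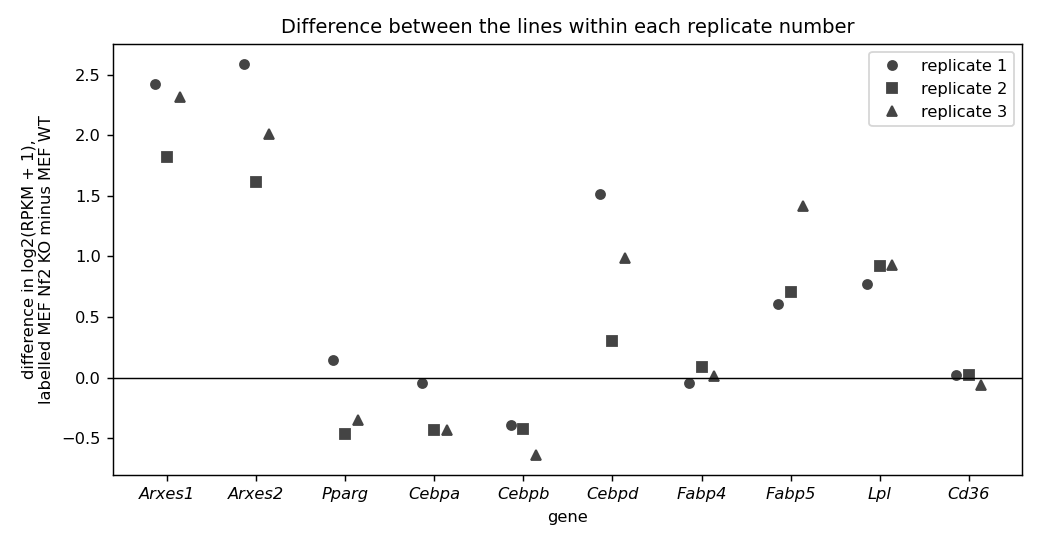
Difference in log2(RPKM + 1), labelled MEF Nf2 KO minus MEF WT, within each replicate number for the 10 genes, 1 point per pair. The points of Arxes1, Arxes2, Lpl, Fabp5 and Cebpd all lie above 0, while Cebpd spreads most, from 0.30 to 1.52. Those of Cebpb and Cebpa all lie below 0, with Cebpa at only -0.04 in replicate 1.

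Variation between replicate numbers, with the line taken out, played no part in choosing the genes and was tested. It was wide over all genes, with 21.2% past the threshold (limma, moderated F test), and same-numbered libraries of the lines deviated together. Of the 7 genes, 1 passed. Cebpb was highest in replicate 1 and lowest in replicate 3 in both lines (limma, adjusted p = 0.0109). The others did not pass in limma, with an adjusted p of 0.1295 for Pparg, 0.138 for Arxes2, 0.227 for Arxes1, 0.403 for Fabp5, 0.605 for Cebpd and 0.876 for Lpl. A count of 1 in 7 is close to the share of all genes. Replicate 2 set much of this variation. Without MEF WT replicate 2, 213 genes passed in place of 2347, and without the replicate 2 labelled MEF Nf2 KO, 212 passed. With both left out, the log2 differences between the lines were 2.30 for Arxes2, 2.37 for Arxes1, 0.85 for Lpl, 1.25 for Cebpd and -0.10 for Pparg.

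Around Arxes2 and Arxes1, the table held 17 other genes within 500 kb, 7 of which passed the filter. The gene chosen for its value here, Bex1, is a small gene of the neighbouring Bex and Tceal cluster. It was at 0.376, 0.534 and 0.480 RPKM in MEF WT and at 4.56, 3.54 and 8.62 RPKM in those labelled MEF Nf2 KO, with a log2 difference of 2.09 (SE 0.27). It passed the filter only through the second line, so it had to be higher there, and its difference is a description. Bex1 overlaps Tceal7 on the other strand, and whether counting used strand is not given in the sources used here. With the replicate block Tceal8 (log2 difference 0.34), Tceal9 (0.64) and Bex3 (0.67) passed as higher in limma, at adjusted p = 0.0381, 0.0182 and 0.0464, but not without it. Of all tested genes, 2.99% passed as higher with the block. The lines did not overlap for Tceal8, Tceal9 and Bex3, as for 7.6% of all tested genes in that direction. On the other side of Arxes2, Armcx5 (-0.08), Gprasp1 (-0.27) and Bhlhb9 (-0.04) did not pass with or without the block, and their lines overlapped.

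**Figure D3:**
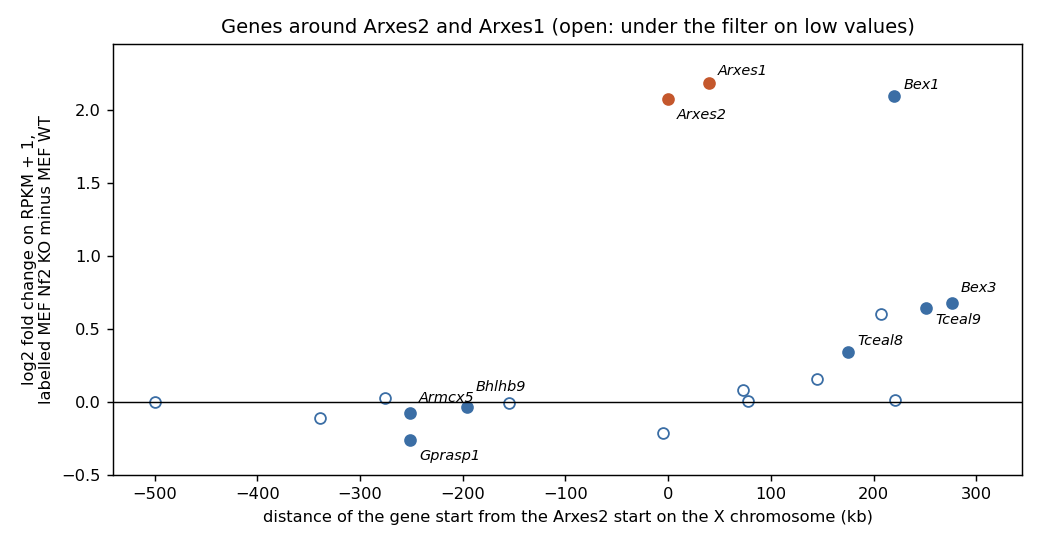
Log2 difference on RPKM + 1, labelled MEF Nf2 KO minus MEF WT, of each gene against the distance of its start from the Arxes2 start on the X chromosome in kb, with Arxes genes in orange, other genes in blue and genes under the filter as open circles. Arxes2, Arxes1 and Bex1 lie near 2, and the named genes to the left lie between -0.27 and -0.04.

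Across the 6 libraries, Arxes2 and Arxes1 followed each other at Pearson r = 0.978 and Arxes2 and Lpl at r = 0.944 on log2(RPKM + 1). The lines set much of these values, so they are descriptions only. Of 11067 genes, those most like Arxes2 were Ube2d1 (r = 0.995), Abcg2 (0.994), Map3k7cl (0.992), Sephs1 (0.992) and Irs1 (0.992). Those most like Lpl were 4930486L24Rik (0.991), Gca (0.989), Zfp185 (0.988), 2010111I01Rik (0.986) and Sema3e (0.984). The size of the difference varied widely among them, from a log2 difference of 0.15 for Ube2d1 to 1.83 for Map3k7cl.

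The wider adipogenic program was described with 8 lists of 148 genes in all, written with earlier results of these data known. Of these, 140 were in the table and 93 were tested. Only 1 passed as higher and 3 as lower in the libraries labelled MEF Nf2 KO, that is 1.08% and 3.23% of 93, against 0.479% and 0.578% of all tested genes. With the replicate block, 5 rose and 12 fell (5.38% and 12.9%, against 2.99% and 4.54%). The median log2 difference was -0.07, against -0.01 for all genes. The test of the replicate number passed for 42 of the 93 (45.2%, against 21.2%).

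PPAR gamma targets, the enzymes and lipid droplet proteins that Pparg switches on in fat cells, showed 0 of 12 tested genes past the threshold with or without the block, and 0 at an unadjusted limma p under 0.05. Their log2 differences ran from -0.41 to 0.26, and 13 of the 27 in the table were under 1 RPKM in every library. Of all 11067 tested genes, 0.479% passed as higher and 0.578% as lower without the block, and 2.99% and 4.54% with it. An unadjusted limma p under 0.05 was found for 1097 of the 11067 without the block. At such shares, a count of 0 in a list this short says little about the list. The same holds for the lists below. Among adipogenic transcription factors and cofactors, 0 of 17 passed (4 at an unadjusted limma p under 0.05). With the block Klf4, an early inducer of Cebpb, and Klf9 fell, by 0.83 and 0.52 on the log2 scale (limma, adjusted p = 0.0231 and 0.0205).

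Inhibitors of adipogenesis held 3 of the 4 calls without the block and 8 of 17 with it, and no test compares the lists. Zfp521, a zinc finger repressor of the fat cell fate, was at 1.205, 0.795 and 1.87 RPKM in MEF WT and at 5.60, 4.68 and 6.37 RPKM in those labelled MEF Nf2 KO, a log2 difference of 1.53. Dlk1, which marks preadipocytes and holds back their maturation, was at 3.30, 3.88 and 8.10 RPKM in MEF WT and at 0.147, 0.293 and 0.0653 RPKM in the other line (log2 difference -2.31). Tgfb1, a secreted inhibitor of differentiation, went from 5.36, 5.10 and 6.40 RPKM to 2.09, 1.61 and 2.53 RPKM (log2 difference -1.11, limma, adjusted p = 0.0302). None of the 3 overlapped between the lines, and these inhibitors moved in both directions. Dlk1 passed the filter only through MEF WT. Zfp521 needed the other line to pass, though MEF WT replicates 1 and 3 also reached 1 RPKM. The filter thus favoured the direction of each, and their values are a description. Adding 1 RPKM also damps the Dlk1 difference, which was -4.25 with a pseudocount of 0.1. The Tgfb1 call was lost without replicate 1 or 3 of either line (limma, adjusted p up to 0.142), and so was that of Zfp521. That of Dlk1 was lost without MEF WT replicate 1 and without replicate 1 or 3 labelled MEF Nf2 KO. With the block, the Wnt ligand Wnt5a also rose (0.93), and Wnt10b (-1.60), Klf2 (-0.97), Nr2f2 (-0.60) and Foxc2 (-0.58) fell. Wnt10b, at 0.412 RPKM in the replicate 2 labelled MEF Nf2 KO, needed MEF WT to pass the filter. The filter favoured its direction, so its fall is a description. In all, 1 of 22 tested inhibitors passed as higher and 2 as lower without the block, Zfp521 and Dlk1 included. With it 2 and 6 passed, Wnt10b included.

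Markers of preadipocytes and adipocyte progenitors gave 2 of 11 tested genes lower, Dlk1 and Pdgfra. Pdgfra, a growth factor receptor of mesenchymal progenitors and of fibroblasts, was at 12.3, 5.22 and 11.7 RPKM in MEF WT and at 1.42, 0.657 and 0.962 RPKM in the other line (log2 difference -2.35). Pdgfra, too, passed the filter only through MEF WT, so both are a description, and its call was kept only when MEF WT replicate 2 was the library left out. Ly6a (-1.85) and Cd44 (-0.76) fell with the block and did not pass in the fit of all libraries without it. Partners of lipoprotein lipase, which fold, anchor, inhibit or take up the enzyme, showed 0 of 8 past the threshold (0 at an unadjusted limma p under 0.05), and Sort1 rose with the block (0.61). In fatty acid uptake and activation 0 of 14 passed (1 at an unadjusted limma p under 0.05), and Cav1, the coat protein of caveolae, rose with the block (0.91).

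Relatives of the PPAR, C/EBP and fatty acid binding proteins gave 0 of 6 past the threshold (1 at an unadjusted limma p under 0.05). With the block Crabp2 (-0.93) fell. It needed MEF WT to pass the filter, which favoured that direction, so its fall is a description. The signal peptidase complex, to which the Arxes-related Spcs3 belongs, showed 0 of 5 with or without the block (0 at an unadjusted limma p under 0.05), with log2 differences from -0.15 to 0.11.

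**Figure D4:**
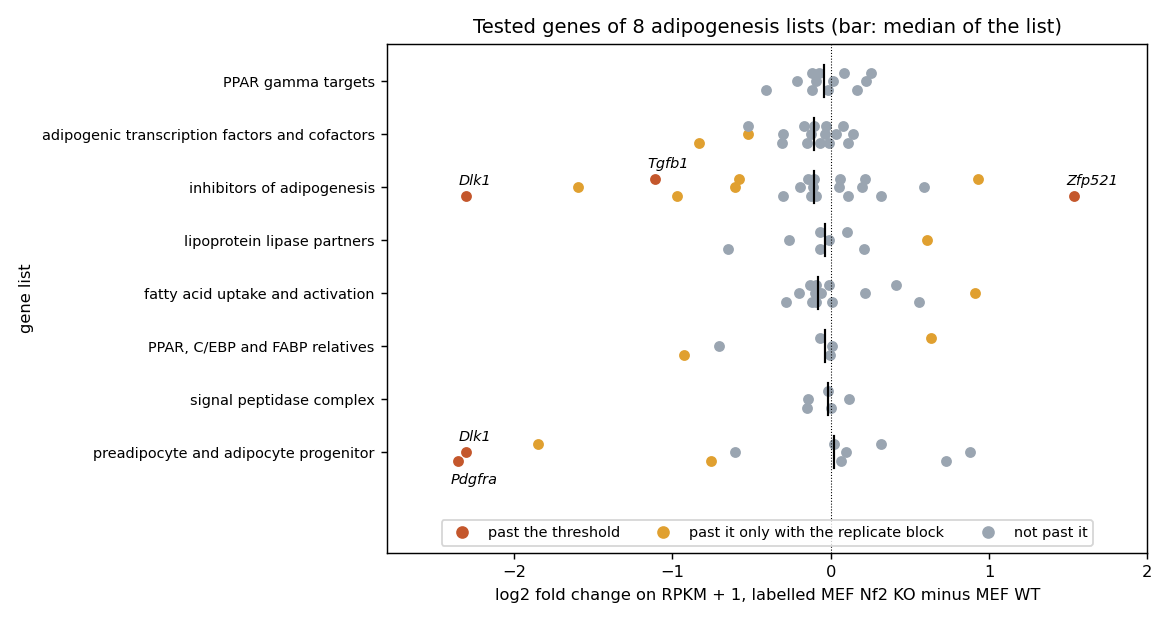
Log2 difference on RPKM + 1, labelled MEF Nf2 KO minus MEF WT, of the tested genes of 8 lists, 1 point per gene, with the list's median as a bar and colour showing which genes passed the threshold in limma. Medians lie between -0.11 and 0.02, and the named genes Dlk1, Tgfb1, Pdgfra and Zfp521 stand at the edges.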

How the data were processed

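The authors had libraries made and sequenced by GENEWIZ and deposited 1 table of values for 26231 genes in 6 libraries. The aligner and counting tool are not given in the sources used here, and the submitters' processing notes name mm10. The deposited values were taken as RPKM, because 83.6% to 85.4% of those up to 20 reads were whole multiples of 1 read (within 0.05 reads, 10% by chance) once multiplied by GENCODE vM21 exon lengths, known for 26033 genes. Depths and reads are inferences from that step. A gene was fitted if 3 or more libraries reached 1 RPKM. The tool was limma 3.58.1 in R 4.3.3 (trend and robust settings, two-sided, Benjamini-Hochberg adjustment over 11067 genes, threshold 0.05) on log2(RPKM + 1), without a block because the study's methods name an unpaired test. P-values measure only the spread between these libraries.

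The labels give both lines the same replicate numbers. Once each line's mean was taken off, the libraries sharing a number correlated over genes (r = 0.552, 0.819 and 0.516 for replicates 1, 2 and 3), so the numbers pair the libraries. The main fit stayed unpaired, and a fit with the number as a block is given where it changes a call. The library marks A, B and 2018 go with replicates 1, 2 and 3 in both lines. No pair of libraries was a duplicate (variance at least 16.1 times the counting noise). The members and lists were chosen with earlier results of these data known. Named were all 10 genes, Nf2, Spcs3, list genes past the threshold with or without the block (at most 8 a list, and 1 not reported here), the 5 genes most like Arxes2 and most like Lpl, and the highest gene of each marker list. Bex1 and its neighbours, and genes under the filter, were named after their values were seen. The script was tested on simulated data. Alternatives were no filter or one of 5 RPKM, a pseudocount of 0.1, plain limma, quantile normalization, median centring, the replicate block, left-out libraries, summed Arxes genes and voom on recovered reads.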

Additional observations from a re-analysis of the deposited data

How the results depend on the processing

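The number of genes past the threshold between the lines was 117, against 9 with no filter, 63 with a filter of 5 RPKM and 833 with the replicate block, which also moved the members' count from 3 to 5 and that of other listed genes from 4 to 17. The members' count was 0 with no filter (5 at an unadjusted limma p under 0.05) and 1 with the filter of 5 RPKM, where Arxes1, Lpl and Pparg were not tested. The listed genes' count was 0 (24 at an unadjusted limma p under 0.05) and 2. The number of genes past the threshold by replicate number was 0 with no filter, against 2347 (5077 at an unadjusted limma p under 0.05). Leaving out single libraries or replicate numbers gave 0 to 484 genes between the lines, 0 to 4 members, 0 to 16 listed genes and 212 to 2037 genes by replicate number. At 0 genes between the lines, without replicate 1 or replicate 3, 578 and 556 had an unadjusted limma p under 0.05. The cause was not tested, though fewer libraries and more low genes are part of these alternatives. A pseudocount of 0.1, plain limma, quantile normalization, median centring and voom (run between the lines only) kept these counts within 1.5 times. Voom, which has no pseudocount of 1 RPKM, put the log2 difference at 4.05 for Arxes1, 1.69 for Lpl, -5.47 for Dlk1 and -5.08 for Dcn (-3.85 for Dcn with a pseudocount of 0.1, against -1.72). The Fn1 call was also lost with quantile normalization. With the block, the fibroblast markers Col3a1 and Thy1 also fell, and Abcg2, Irs1 and 2010111I01Rik passed. It changed no other call of a named gene than these and those given beside the results. No called direction reversed. Depth limits Cd36, and Arxes1 in MEF WT replicate 1. In replicates 1 and 2 of both lines, Cebpa rested on 3.99 to 25.9 reads and Fabp4 on 19.0 to 28.9 reads.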

Other observations

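Several related genes lay under the filter and belong in no comparison above. They were picked after their values were seen. Slc2a4, the insulin-responsive glucose transporter of fat and muscle, was at 0.171, 0.167 and 0.286 RPKM in MEF WT and at 1.03, 0.894 and 0.625 RPKM in those labelled MEF Nf2 KO. Pmp2, a fatty acid binding protein of myelin, was at 0, 0.0373 and 0.0462 RPKM in MEF WT, from 0 to 3.97 reads, and at 0.864, 0.405 and 0.845 RPKM in the other line, from 11.0 to 86.8 reads. Angptl4, an inhibitor of lipoprotein lipase, went the other way, at 0.273, 0.268 and 0.378 RPKM in MEF WT and 0.0937, 0.146 and 0.158 RPKM in the other line. Tceal5, near Bex1 on the X chromosome, was at 0.118, 0.105 and 0.0396 RPKM and at 0.832, 0.487 and 0.655 RPKM. The lines did not overlap for any of these 4, and they were not tested. Of all tested genes, 7.6% did not overlap and were higher in that line, and 7.52% did not and were lower. Other listed genes under the filter did not overlap either, such as Zfp423 (higher) and Ebf2 (lower).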
